A study of Mus musculus with 2 samples.

Results

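The mitochondrial carrier family Slc25 was followed in chimeric mouse embryos in which injected cells lacked Gata1. Members were all genes whose symbol is Slc25a and a number, which gave 47 of the 29453 genes in the count tables, each read in the spliced and the unspliced layer. The embryos were made by injecting tdTomato-expressing pluripotent stem cells of 1 clone, which carried a 38 base-pair frameshift deletion in exon 4 of Gata1, into wild-type C57BL/6 blastocysts. Cells of 6 pooled chimaeras were sorted into a tdTom+ fraction, which is Gata1-null, and a tdTom- fraction, which is the wild-type host, and each fraction gave 1 droplet-based library. The age label gives E8.5 for tdTom+ and E8.6 for tdTom-, although both came from the same pool. The title of the tdTom- sample and the study give E8.5. Since genotype, clone, host background and library all differ between the fractions, their parts in any difference cannot be told apart. The study gives the injected line as male and names no sex for the host embryos, so sex may differ as well. Slc25a5, Slc25a14, Slc25a43 and Slc25a53 lie on the X chromosome. There was 1 library per fraction, so no difference had a replicate check and no test was run.

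Most Slc25 proteins are carriers of the inner mitochondrial membrane that exchange nucleotides, phosphate, carboxylates, amino acids and cofactors with the cytosol, while Slc25a46 lies in the outer membrane and Slc25a17 in peroxisomes. Slc25a3 imports phosphate, and the adenine nucleotide translocases Slc25a4 and Slc25a5 trade ADP for ATP. In developing red cells the family also feeds haem synthesis: Slc25a37 (mitoferrin 1) and Slc25a28 (mitoferrin 2) import iron, Slc25a38 brings in glycine, and Slc25a39 and Slc25a40 import glutathione. Slc25a21 carries 2-oxodicarboxylates, intermediates of lysine and tryptophan breakdown. The study lists Slc25a21 and Slc25a37 among its multiple rate kinetics genes, found in another dataset from the relation of unspliced to spliced molecules during red cell maturation. Its rule also asked that the mean spliced level be highest in the latest erythroid population, so a rise with maturation is part of their definition.

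Start regions are shown for Slc25a21, the member with the largest erythroid difference, and for Slc25a28 and Slc25a4, carriers whose relatives Slc25a37 and Slc25a5 dominated in erythroid-like cells. Each is the 250 bases before a RefSeq transcript start, 5′ to 3′ on the minus strand of GRCm38.p6, and Slc25a21 has a pair of annotated starts. Capitals mark a core binding word of the GATA factors on either strand, spelled AGATAA or AGATAG, or TGATAA or TGATAG.
Slc25a21, chr12:57160644-57160893: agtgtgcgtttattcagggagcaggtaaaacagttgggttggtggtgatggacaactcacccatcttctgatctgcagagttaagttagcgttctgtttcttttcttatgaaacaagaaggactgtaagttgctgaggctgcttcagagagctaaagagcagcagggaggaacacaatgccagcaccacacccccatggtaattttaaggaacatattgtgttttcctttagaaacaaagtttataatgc
Slc25a21, chr12:57197473-57197722: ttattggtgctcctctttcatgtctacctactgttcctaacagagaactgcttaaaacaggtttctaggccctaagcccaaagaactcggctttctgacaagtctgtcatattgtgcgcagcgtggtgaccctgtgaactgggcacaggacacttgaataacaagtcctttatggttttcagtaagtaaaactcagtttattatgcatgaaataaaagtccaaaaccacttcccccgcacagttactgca
Slc25a28, chr19:43674882-43675131: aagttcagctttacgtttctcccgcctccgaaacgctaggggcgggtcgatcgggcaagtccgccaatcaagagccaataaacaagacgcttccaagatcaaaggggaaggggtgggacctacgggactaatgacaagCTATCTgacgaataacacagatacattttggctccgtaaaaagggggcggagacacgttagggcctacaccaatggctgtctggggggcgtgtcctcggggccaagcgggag
Slc25a4, chr8:46211063-46211312: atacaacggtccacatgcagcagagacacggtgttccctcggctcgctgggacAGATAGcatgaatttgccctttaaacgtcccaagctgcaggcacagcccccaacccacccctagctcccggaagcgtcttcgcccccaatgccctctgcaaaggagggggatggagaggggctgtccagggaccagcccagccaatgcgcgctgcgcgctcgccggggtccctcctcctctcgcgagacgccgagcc
Neither Slc25a21 window held a word, Slc25a28 held 1 at 112 bases before the start, and Slc25a4 held 1 at 197 bases before it. In another annotation, GENCODE, Slc25a4 starts at chr8:46211284, within this window, and its word then lies inside the gene. Over the 36 members with an entry, 6 (16.7%) had a word in a window, namely Slc25a4, Slc25a5, Slc25a12, Slc25a28, Slc25a43 and Slc25a53, against 29.7% of 27025 genes. Slc25a37 had no entry, so its start region was not searched. A match of letters is a description and not a bound site. Slc25a21 lies on chr12:56712634-57197472 (ENSMUSG00000035472) and Slc25a37 on chr14:69241848-69285112 (ENSMUSG00000034248), both on the minus strand of GRCm38, and Slc25a37 overlaps Gm20236 on the same strand.

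The tables held 8981 tdTom+ and 9252 tdTom- barcodes, of which 18 sequences occurred in both libraries, with 167940767 and 157174026 spliced unique molecular identifiers (UMIs). After doublet calls, and the rest of 1 cluster made up mostly of such calls, were left out, 8582 tdTom+ and 8723 tdTom- cells remained. Gata1 had 1130 spliced UMIs in the tdTom+ and 4600 in the tdTom- library, but 3′ end tags lie outside the deleted stretch and do not check it. Cell types were rebuilt by clustering without the family members, and a class was named "-like" only where at least 3 of its markers were raised. Erythroid-like cells numbered 36 in tdTom+, 33 of them in 1 sub-cluster described further on, and 1383 in tdTom-, blood progenitor-like cells 1083 and 2, and cardiac-like cells 251 and 177. Of their markers, 7 of 7 were raised in the cardiac-like cluster and in the later erythroid-like groups, 6 of 7 in the early erythroid-like group and 6 of 6 in the progenitor-like groups. Globin UMIs can mark free RNA of red cells, but their source here was not tested. They made up a median of 0.0111% of the UMIs of a tdTom+ cardiac-like cell and 0.0649% of a tdTom- one. Their share of the summed UMIs of these cells was 0.0284% and 0.246%. In neural-like cells the summed shares were 0.0174% and 0.0966%.

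The family was present in every class, and its level differed between classes. Levels are UMIs per 1000000 UMIs of the layer (CPM). Spliced UMIs count 3′ ends of molecules, so their CPM can be set side by side between members without a length scale. Unspliced UMIs rest on intronic reads, so this does not hold for their CPM. Over all kept cells the 47 members summed to 3617 (tdTom+) and 3415 CPM (tdTom-). The level was highest in cardiac-like cells, where tdTom+ reached 4920 CPM [4853, 4986] and tdTom- 5254 CPM [5172, 5337]. With finer clustering the order changed, since cardiac-like cells were then at 4224 (tdTom+) and 4389 CPM (tdTom-) and a cluster of 61 tdTom- visceral endoderm-like cells was at 5843 CPM. The finer cardiac-like class took in a cluster of 459 cells that raised 4 of 7 cardiac markers, with 0 among its leading genes. With the main clusters the level was lowest in neural-like cells, at 2669 and 2684 CPM. Intervals in brackets are exact 95% intervals and cover counting error only, here and throughout. Gut endoderm-like cells lay close to neural-like cells, at 2745 and 2751 CPM, with intervals that overlap between the fractions. The visceral endoderm-like cluster raised 7 visceral endoderm markers and also 7 gut endoderm markers. Its level differed between the fractions, as 214 tdTom+ cells summed to 3238 CPM [3179, 3298] and 327 tdTom- cells to 3835 CPM [3781, 3888]. Most cells of this class lay in finer clusters that both fractions shared, but 61 of the tdTom- and 6 of the tdTom+ cells fell in the finer visceral endoderm-like cluster. The other 208 tdTom+ and 266 tdTom- cells, which finer clustering named gut endoderm-like, were at 3042 CPM [2983, 3103] and 3115 CPM [3059, 3172], with intervals that overlap.

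Slc25a3, Slc25a4 and Slc25a5 supplied 81.0% of the family's UMIs in tdTom+ and 77.2% in tdTom- cells. Slc25a4 and Slc25a5 are closely similar in sequence and may share reads with copies elsewhere in the genome, which makes their values uncertain. Slc25a4 was the top member of cardiac-like cells in both fractions. It also led the pharyngeal and splanchnic mesoderm, somitic mesoderm, allantois and extraembryonic mesenchyme, gut endoderm and visceral endoderm classes in both. Slc25a3 was the top member of neural-like, endothelial-like and every blood class. At the other end, 8 members had under 50 spliced UMIs in at least 1 of the libraries, over all barcodes. Slc25a54 had 0 and 1 spliced UMIs in tdTom+ and tdTom-, and Slc25a41 had 6 and 5. Slc25a31, the adenine nucleotide translocase of germ cells, had 9 and 41, while the orphan carrier Slc25a34 had 14 and 2. The glutamate carrier Slc25a18 had 13 and 7 spliced but 743 and 953 unspliced UMIs, the ornithine carrier Slc25a2 had 23 and 29 spliced and no unspliced UMIs, and Slc25a42, a coenzyme A carrier, had 39 and 29. Slc25a35 had 40 and 61. The other 39 members had between 53 and 194199 spliced UMIs in each library.

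Host erythroid-like cells were compared with all 7340 other host cells first. Slc25a21 and Slc25a37 stood far above the other host cells there, and most carriers differed by less than 2-fold. A member was counted as higher or lower where its CPM differed by at least 2-fold and both groups together held at least 50 UMIs. Of 39 members with that depth, 4 were higher and 9 lower, while over all 13641 genes with that depth 4.3% were higher and 45.5% lower. The members' median log2 fold was -0.35 and that of all genes -0.81.

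Slc25a37 stood at 431 CPM in host erythroid-like and 18.4 CPM in other host cells, with 11604 and 2122 UMIs, a log2 fold of 4.55 [4.48, 4.62]. Slc25a21 stood at 39.2 and 1.01 CPM, a log2 fold of 5.28 [5.00, 5.57]. The aspartate-glutamate carrier Slc25a12 was 1.73 [1.43, 2.03] higher on the log2 scale, at 6.24 against 1.88 CPM, and the folate carrier Slc25a32 was 1.31 [0.78, 1.82] higher, at 1.89 against 0.76 CPM. These 4 were the members past 2-fold in the upward direction, and both multiple rate kinetics genes were among them. With doublet calls kept, the log2 fold was 4.28 for Slc25a21 and 3.72 for Slc25a37.

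**Figure D1:**
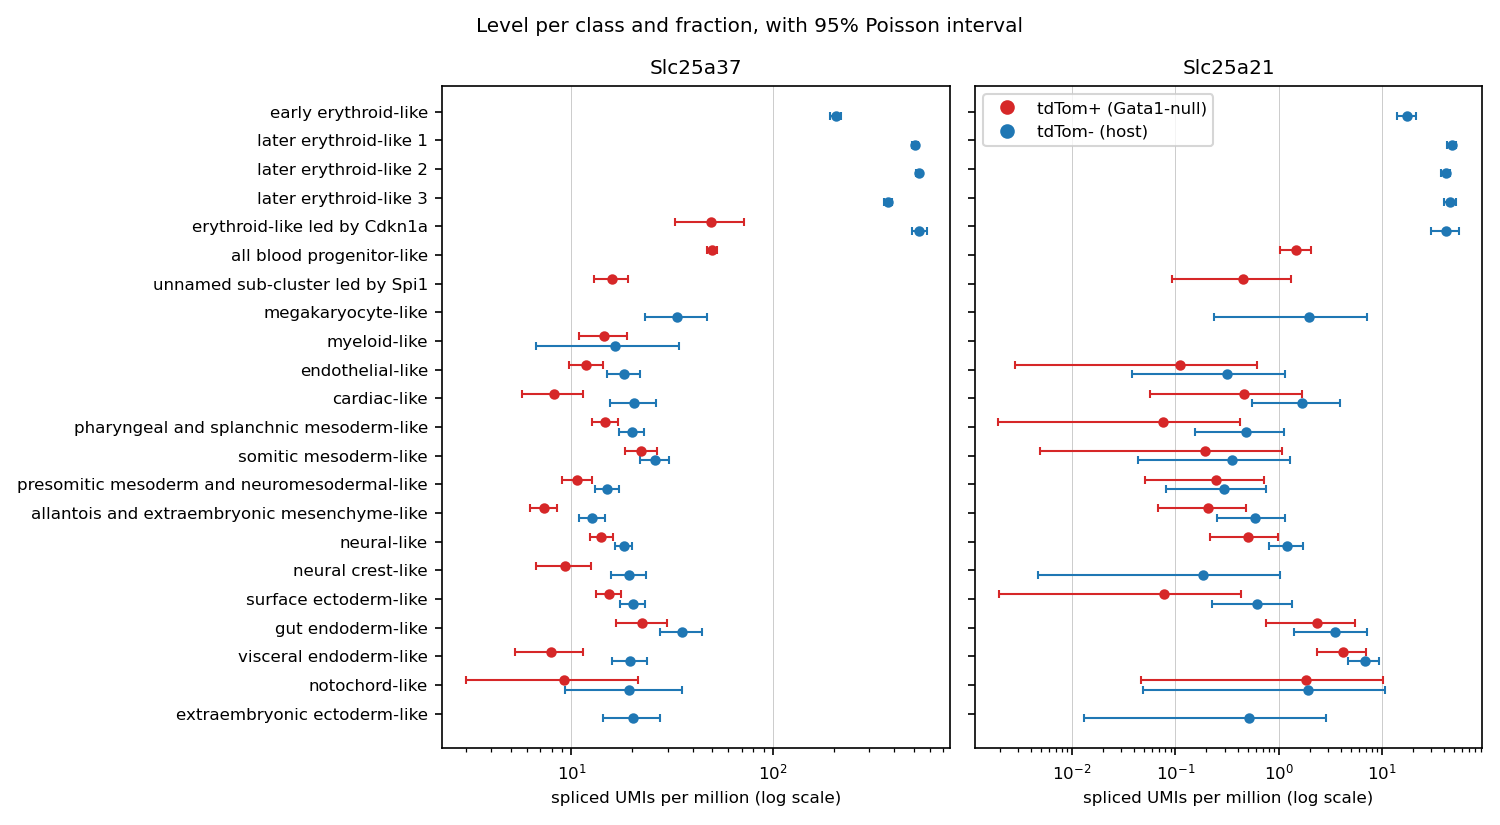
Spliced level (CPM, log scale) of Slc25a37 (left) and Slc25a21 (right) in each class, for tdTom+ (red) and tdTom- (blue), where points are summed levels of 1 library and bars are exact 95% Poisson intervals. Groups under 20 cells or at 0 UMIs are not drawn. Host erythroid-like groups sit to the right of every other group for both carriers.

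Members of the iron, haem and glutathione group did not move as one. Slc25a38, the glycine importer, was at 49.7 against 30.1 CPM, a log2 fold of 0.72 [0.63, 0.81]. Slc25a39 was at 163 against 101 CPM, a log2 fold of 0.68 [0.63, 0.73], while its relative Slc25a40 was at 2.26 against 3.80 CPM, a log2 fold of -0.75 [-1.16, -0.36]. Slc25a28, the more widely used mitoferrin, had 22.5 against 22.6 CPM and a log2 fold of -0.01 [-0.14, 0.12]. So 1 of the 5 was past 2-fold, and the group's median log2 fold was 0.68. Genes of haem synthesis and its mitochondrial partners, a list outside the family, had 13 of 15 higher and 1 lower, with a median log2 fold of 3.13. The lower gene was Alas1, the general form of the enzyme that starts haem synthesis, at -1.92 [-2.27, -1.58].

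Carriers of adenine nucleotides and phosphate split. Slc25a5 was at 1040 against 588 CPM, a log2 fold of 0.82 [0.80, 0.84], and Slc25a3 was at 1338 against 995 CPM, a log2 fold of 0.43 [0.41, 0.44]. Slc25a4 was at 598 against 974 CPM, a log2 fold of -0.70 [-0.73, -0.68]. Slc25a24, a calcium-regulated ATP-magnesium/phosphate carrier, was the one past 2-fold, at 8.54 against 23.7 CPM and a log2 fold of -1.47 [-1.67, -1.28]. A list of 11 genes for mitochondrial content had none past 2-fold and a median log2 fold of 0.34. Of the 5 relatives with other symbols, 3 had enough UMIs, with the uncoupling protein Ucp2 at 2.77 [2.67, 2.87], the carrier homologue Mtch1 at -1.77 [-1.99, -1.56] and its relative Mtch2 at 0.25 [0.20, 0.30].

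Several of the 9 lower members had few UMIs. Slc25a48, which carries choline, had 0 UMIs in host erythroid-like cells and 116 in the other host cells. Taking 3 counts as the limit for the group at 0, its log2 fold was -3.18, and the upper end of its exact interval was -2.85. Slc25a43 had 1 against 53 UMIs and a log2 fold of -3.63 with a wide interval [-8.96, -1.09]. The basic amino acid carrier Slc25a29 had a log2 fold of -2.71 [-3.59, -1.95] and Slc25a27, an uncoupling-protein-like member, of -2.51 [-3.53, -1.65]. Of the pyrimidine nucleotide carriers, Slc25a36 was at 5.27 against 14.7 CPM, a log2 fold of -1.48 [-1.74, -1.24], whereas Slc25a33 was at 41.1 against 34.1 CPM, a log2 fold of 0.27 [0.17, 0.37]. The other 3 members past 2-fold were Slc25a53 at -1.83, Slc25a35 at -1.63 and the glutamate carrier Slc25a22 at -1.32. By substrate group, 4 of the 6 members with enough UMIs on the list of outer membrane and orphan members were lower, beside 45.5% of all genes, and 2 of 6 amino acid carriers were lower and 1 was higher, and of the 9 carriers of nucleotides and cofactors 1 was higher and 1 lower. Among the 4 di- and tricarboxylate carriers Slc25a21 was higher and none was lower, and among the 3 uncoupling-protein-like members Slc25a27 was lower. Slc25a14, Slc25a16, Slc25a17, Slc25a25, Slc25a26, Slc25a30, Slc25a46 and Slc25a47 also had enough UMIs, with log2 folds between -0.89 and 0.34.

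**Figure D2:**
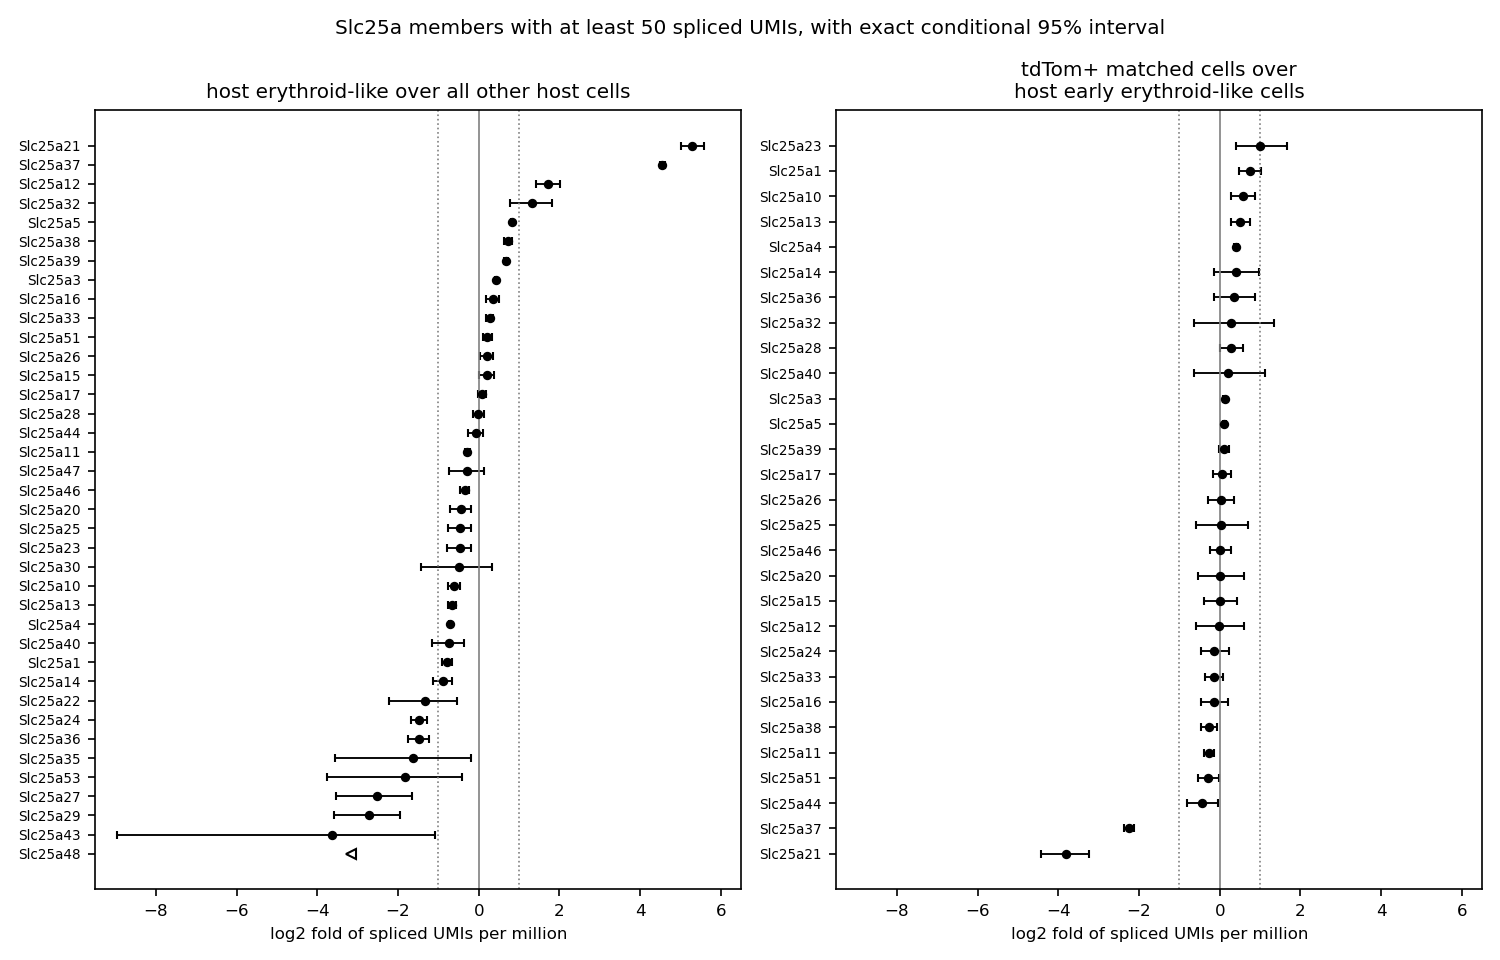
Log2 fold of the spliced CPM for members with at least 50 UMIs, in host erythroid-like over all other host cells (left) and in tdTom+ matched cells over host early erythroid-like cells (right), with exact conditional 95% intervals as bars. Dotted lines mark 2-fold, the open triangle is the bound for Slc25a48, and Slc25a21 and Slc25a37 lie at the upper end on the left and at the lower end on the right.

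Within the host erythroid-like cells, maturation was read from the globin share, which did not use the family. The early group of 262 cells had a median globin share of 5.08%, and 3 later groups of 386, 375 and 296 cells had 9.22%, 10.8% and 11.4%. Later cells held more of the iron importer Slc25a37 and the glutathione importer Slc25a39, more spliced Slc25a21, and less Slc25a4 and Slc25a24, each by more than the counting error. Of 31 members with at least 50 UMIs, 2 were higher and 1 lower by 2-fold, beside 0.766% and 2.1% of 8486 genes. The members' median log2 fold was -0.07, beside -0.15 over all genes.

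Slc25a37 stood at 205 CPM in the early group and at 505, 527 and 372 CPM in the 3 later groups, so the later group richest in globin had the lowest of the later levels. Later over early, its log2 fold was 1.24 [1.14, 1.33]. Slc25a21 stood at 17.4 CPM in the early group and at 47.4, 41.4 and 45.5 CPM in the later groups, a log2 fold of 1.36 [1.04, 1.69]. When both layers were summed, the log2 fold of Slc25a21 was 0.23. Slc25a39 stood at 121 CPM early and 177, 167 and 185 CPM later, a log2 fold of 0.54 [0.41, 0.66]. Slc25a38, with 49.4 CPM early and 52.8, 44.0 and 52.5 CPM later, had a log2 fold of -0.01 [-0.21, 0.20].

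In the other direction Slc25a24 stood at 16.4 CPM early and 6.23 CPM later, a log2 fold of -1.40 [-1.80, -0.98]. Slc25a4 was at 845 CPM in the early group and at 595, 541 and 492 CPM in the later groups, while Slc25a5 lay between 990 and 1138 CPM. Later over early, the log2 fold was -0.63 [-0.68, -0.57] for Slc25a4 and -0.16 [-0.20, -0.11] for Slc25a5. Further members with an interval below 0 were Slc25a36 at -0.71, the dicarboxylate carrier Slc25a10 at -0.66, the branched-chain amino acid carrier Slc25a44 at -0.47, the oxoglutarate-malate carrier Slc25a11 at -0.46 and Slc25a3 at -0.18. The aspartate-glutamate carrier Slc25a13 was above 0 at 0.31 [0.07, 0.56]. Intervals lay below 0 for 8 of the 31 members, beside 2713 of 8486 genes. They lay above 0 for 4 members, beside 423 genes. None of the 15 haem synthesis genes was past 2-fold, and their median log2 fold was 0.47.

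The Gata1-null side was compared through matching, since nearly no tdTom+ cell was erythroid-like by its own cluster. Each of 1616 tdTom+ blood cells was assigned to the host group most frequent among its nearest host cells, and 1233 fell to the early erythroid-like group. Of the host early cells themselves, 93.9% returned to that group, by the same expression distances that formed the groups. That share therefore does not measure how well the tdTom+ cells matched. No distance limit was set, and the host side held only 2 blood progenitor-like cells. By their own clusters, 1083 of the 1616 tdTom+ blood cells were blood progenitor-like, and the clusters of the 1233 are not given here. The progenitor-like sub-clusters raised 6 of 6 progenitor and 3 erythroid markers, and the host early group 6 of 7 erythroid and 2 progenitor markers. Cell type and fraction therefore cannot be told apart in this comparison. Slc25a21 and Slc25a37 were far lower in the matched Gata1-null cells than in the 262 host early cells, while nearly all other carriers differed by less than 2-fold. Of 30 members with at least 50 UMIs, 1 was higher and 2 were lower, beside 8% and 3.31% of 9303 genes. The members' median log2 fold was 0.03, and the family summed to 4695 CPM [4670, 4721] in matched and 4356 CPM [4300, 4414] in early host cells.

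Slc25a37 had 1190 UMIs or 43.3 CPM in the matched cells and 1060 UMIs or 205 CPM in the host early cells, a log2 fold of -2.24 [-2.36, -2.12]. Slc25a21 had 34 UMIs or 1.24 CPM against 90 UMIs or 17.4 CPM, a log2 fold of -3.81 [-4.43, -3.23]. The tdTom+ neural-like cells, a class outside the blood lineages, held 14.1 CPM [12.3, 16.1] of Slc25a37 and 0.50 CPM [0.22, 0.99] of Slc25a21. The matched level of Slc25a37 lay above that, whereas for spliced Slc25a21 the intervals overlapped, with [0.86, 1.73] in matched cells. Globin made up 0.0174% of the neural-like UMIs against 10.1% in host erythroid-like cells, and the part of free RNA in the neural-like levels was not tested. In the unspliced layer Slc25a21 had 576 UMIs or 168 CPM in matched and 155 UMIs or 60.7 CPM in tdTom+ neural-like cells. In blood progenitor-like cells its spliced log2 fold over all other tdTom+ cells was 2.03 [1.36, 2.69]. The median globin share was 1.72% in matched and 5.08% in host early cells, and its part in these differences was not tested. Alas2, the erythroid enzyme that starts haem synthesis, was at 30.7 against 145.8 CPM, a log2 fold of -2.25 [-2.39, -2.10].

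Other carriers for haem synthesis were close to the host level. Slc25a38 was at 41.3 against 49.4 CPM, a log2 fold of -0.26 [-0.46, -0.06], and Slc25a39 was at 129 against 121 CPM, a log2 fold of 0.10 [-0.02, 0.22]. Slc25a28 was at 28.6 against 23.6 CPM, a log2 fold of 0.28 [0.01, 0.57], and Slc25a40 at 3.09 against 2.70 CPM had an interval from -0.63 to 1.13. Among the 15 haem synthesis genes, 7 were lower and none was higher, with a median log2 fold of -0.86. The 11 mitochondrial content genes had none past 2-fold and a median of 0.05, and Ucp2 was at -1.42 [-1.65, -1.19].

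The one member past 2-fold upward was Slc25a23, a calcium-regulated ATP-magnesium/phosphate carrier, with 9.32 against 4.63 CPM and a log2 fold of 1.01 [0.40, 1.68]. It rested on 24 host UMIs, and with globin UMIs left out of the total its log2 fold was 0.96. The citrate carrier Slc25a1 followed at 0.75 [0.47, 1.03], then Slc25a10 at 0.57 [0.28, 0.88], Slc25a13 at 0.51 [0.27, 0.75] and Slc25a4 at 0.40 [0.35, 0.45]. Below 0 lay Slc25a44 at -0.43, the NAD carrier Slc25a51 at -0.28 and Slc25a11 at -0.27. Slc25a3 and Slc25a5 were 0.13 [0.09, 0.16] and 0.11 [0.07, 0.15] higher.

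Within the tdTom+ blood cells the 2 multiple rate kinetics carriers varied with the sub-cluster. Slc25a37 stood at 51.3 and 46.1 CPM in the 2 blood progenitor-like sub-clusters, at 15.9 CPM in an unnamed sub-cluster of 296 cells led by the myeloid regulator gene Spi1, and at 14.5 CPM in myeloid-like cells. Slc25a21 stood at 1.30, 1.83 and 0.45 CPM in the first 3 of these and had 0 UMIs in the myeloid-like cells. A sub-cluster led by the cell cycle inhibitor gene Cdkn1a took its erythroid-like name from markers over 33 tdTom+ and 64 host cells together, and it also raised 5 blood progenitor markers. Its tdTom+ cells had 49.3 CPM [32.5, 71.7] of Slc25a37 and its host cells 532 CPM [489, 578], with median globin shares of 0.556% and 14.7%. The globin share of these tdTom+ cells lay below the 1.90% of tdTom+ blood progenitor-like cells, so their name goes against their own globin level. Without the Spi1-led sub-cluster the log2 fold between matched and host cells was -2.06 for Slc25a37 and -3.67 for Slc25a21.

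Slc25a21 was almost wholly unspliced, and in host erythroid-like cells it supplied 14003 unspliced UMIs, 0.480% of all unspliced UMIs there. In the matched tdTom+ cells it supplied 576, or 0.0168%. In the host early cells alone, with 2457 unspliced UMIs, its level was 3912 CPM of the unspliced layer. The matched cells held 168 CPM, a log2 fold of -4.54 [-4.68, -4.41]. The unspliced share of its UMIs was 96.5% [95.7, 97.1] in host early cells, 88.6%, 93.9% and 92.3% in the later groups and 94.4% [92.3, 96.1] in matched cells. A molecule is called unspliced from intronic reads, and intron length was not accounted for.

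For Slc25a37 the unspliced share was 9.09% [7.50, 10.9] in host early cells, 7.17%, 8.40% and 11.0% in the later groups and 8.6% [7.14, 10.3] in matched cells. Its unspliced level was 169 CPM in host early and 32.6 CPM in matched cells, a log2 fold of -2.37 [-2.77, -1.97], close to that of the spliced layer. From early to later host cells the unspliced level of Slc25a37 was 1.34 [1.04, 1.64] higher on the log2 scale, and that of Slc25a21 0.35 [0.29, 0.42] higher. For Slc25a21 the interval of the spliced fold lay above that of the unspliced fold, whereas for Slc25a37 the intervals of the layers overlapped.

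**Figure D3:**
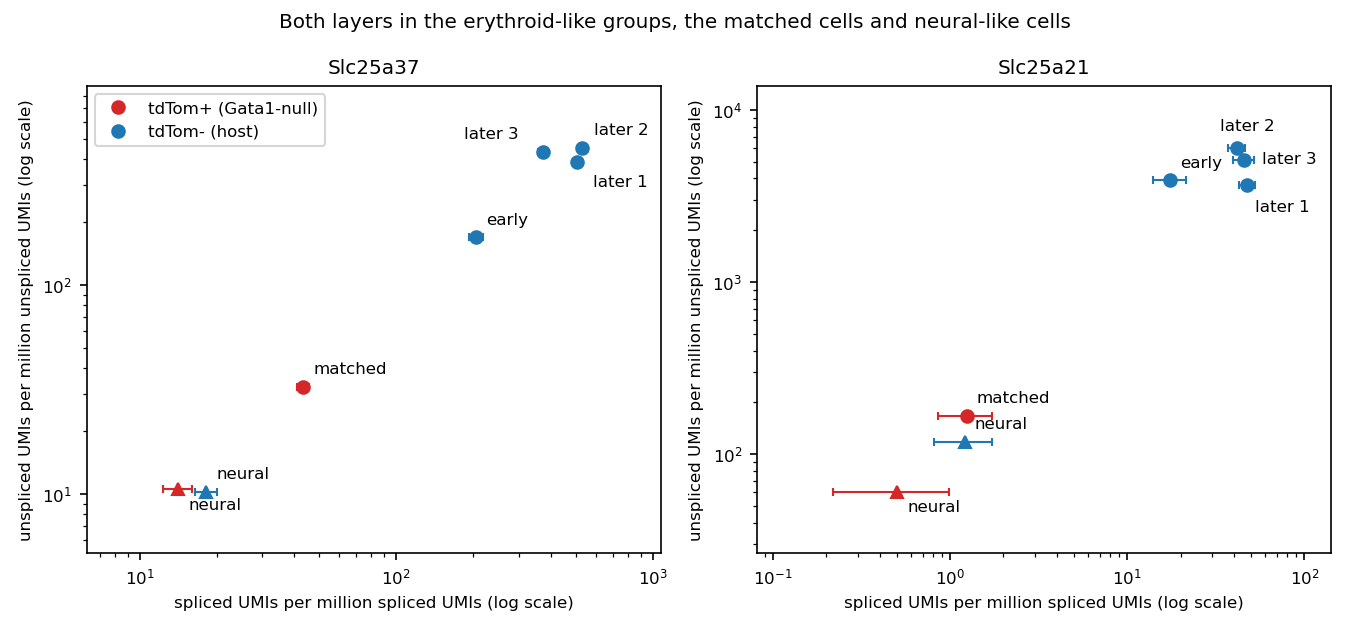
Unspliced CPM of the unspliced layer against spliced CPM of the spliced layer (both log scales) of Slc25a37 (left) and Slc25a21 (right), in host erythroid-like groups (blue circles), matched tdTom+ cells (red circle) and neural-like cells (triangles), with 95% Poisson intervals of the spliced level. The matched cells lie below the host early group on both axes for both carriers.

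Over the family, host erythroid-like over other host cells, 5 of 31 members with at least 50 unspliced UMIs were higher and 2 lower, beside 10.5% and 29.4% of all genes. Slc25a21 at 5.70 [5.63, 5.77] and Slc25a37 at 4.97 [4.77, 5.18] led again. They were followed by Slc25a42, the coenzyme A carrier, at 2.43 [1.86, 2.99], Slc25a12 at 1.95 [1.67, 2.23] and Slc25a38 at 1.41 [1.03, 1.78]. Slc25a4 was lower, at -1.95 [-2.74, -1.25], and Slc25a43, with 3 against 49 unspliced UMIs, had an interval that held 0. Later over early host cells, 1 of 18 members was higher and none lower, beside 1.65% and 1.43%. In matched over host early cells, 3 of 21 members were higher and 2 lower, beside 6.25% and 3.91%, and of the higher ones Slc25a22 rested on 3, Slc25a4 on 4 and Slc25a23 on 0 host unspliced UMIs.

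Pairs of related carriers shifted their balance with cell type, here given as the share of the pair's spliced UMIs that the first member took. Slc25a37 took 89.7% [87.8, 91.4] of the mitoferrin UMIs in host early cells and 95.9%, 95.9% and 93.9% in the later groups. In the matched tdTom+ cells it took 60.2% [58.0, 62.4], and in the Spi1-led sub-cluster 34.9% [29.5, 40.5]. Over all kept cells the share was 42.7% in tdTom+ and 81.0% in tdTom-, where 11604 of the 13726 Slc25a37 UMIs came from erythroid-like cells.

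Slc25a4 took 42.6% [41.7, 43.6] of the UMIs of Slc25a4 and Slc25a5 in host early cells and 37.5%, 34.1% and 32.3% in the later groups, with no overlap of the intervals of early and later cells. Matched tdTom+ cells stood at 47.6% [47.2, 48.0]. Cardiac-like cells had the highest share, at 79.2% [78.5, 79.9] in tdTom+ and 81.3% [80.6, 82.1] in tdTom-, followed by gut endoderm-like cells at 77.1% and 76.8%. Slc25a12 took 14.2% of the aspartate-glutamate carrier UMIs in host erythroid-like cells, 16.1% and 14.6% in cardiac-like cells of tdTom+ and tdTom- and 1.38% and 0.698% in neural-like cells. Slc25a39 took between 94.5% and 99.3% of the UMIs of Slc25a39 and Slc25a40 in every group of at least 20 cells.

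**Figure D4:**
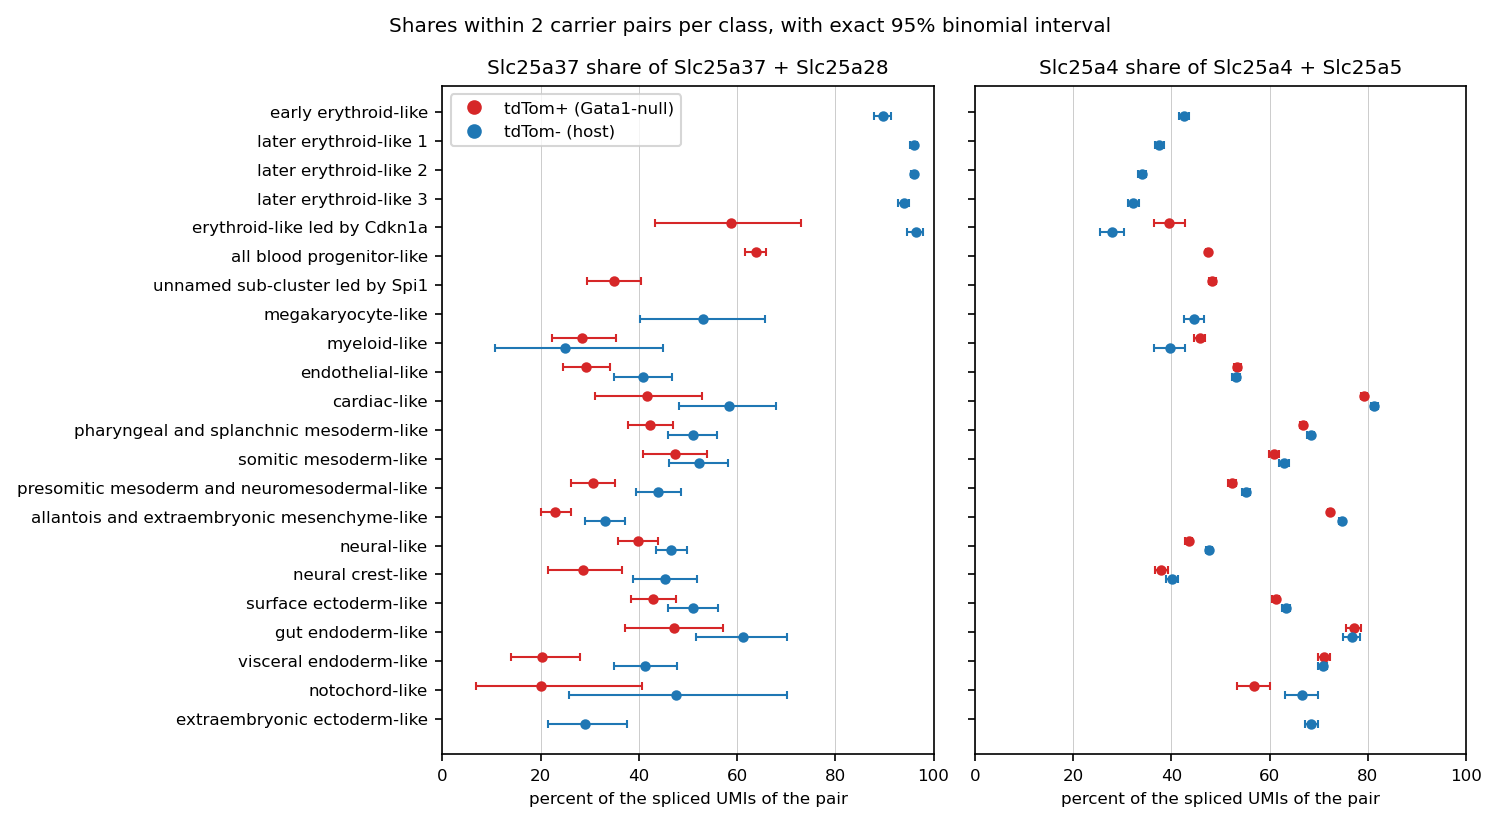
Percent of the pair's spliced UMIs taken by Slc25a37 (left, with Slc25a28) and by Slc25a4 (right, with Slc25a5) in each class, for tdTom+ (red) and tdTom- (blue) with exact 95% binomial intervals; groups under 20 cells are not drawn. Host erythroid-like groups are at the right edge on the left and cardiac-like cells at the upper end on the right.

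Cardiac-like cells were compared with all other non-blood cells of their own fraction. In both fractions the aspartate-glutamate carrier Slc25a12, the translocase Slc25a4 and the oxoglutarate-malate carrier Slc25a11 were the members furthest above the other cells, while Slc25a13, the more abundant aspartate-glutamate carrier, was below them. In tdTom+ 3 of 36 members were higher and 4 lower by 2-fold, beside 8.18% and 19% of 13286 genes, so the share of members higher was near that of all genes. In tdTom- 2 of 39 were higher and 0 lower, beside 9.6% and 17.6% of 13402 genes. The members' median log2 fold was -0.07 in tdTom+ and -0.04 in tdTom-, beside -0.25 and -0.23 over all genes. The 11 mitochondrial content genes had medians of 0.31 and 0.36, with 0 and 1 higher by 2-fold and 0 lower.

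In cardiac-like cells Slc25a4 reached 2568 (tdTom+) and 2943 CPM (tdTom-), with log2 folds of 1.42 [1.39, 1.44] and 1.68 [1.64, 1.71]. Slc25a12 stood at 8.17 and 6.77 CPM, with log2 folds of 2.43 [1.86, 2.96] and 2.01 [1.26, 2.67]. Slc25a11 stood at 216 and 210 CPM, with log2 folds of 1.03 [0.93, 1.13] and 0.86 [0.74, 0.97]. With finer clustering, which put 3 clusters in the cardiac-like class, the log2 folds were 1.02 and 1.21 for Slc25a4, 1.54 and 1.77 for Slc25a12, and 0.58 and 0.48 for Slc25a11. The largest of the 3 clusters held 459 cells and had 0 cardiac markers among its leading genes. The carnitine-acylcarnitine carrier Slc25a20, needed to burn fatty acids, was at 0.78 [0.31, 1.21] and 0.50 [-0.08, 1.04]. Slc25a23 was at 0.66 [0.03, 1.23] in tdTom+ but at -0.10 with finer clustering, and Slc25a16 at 0.49 [0.06, 0.88] in tdTom-.

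Below the other non-blood cells lay Slc25a28 at -1.05 [-1.48, -0.64] and -0.64 [-1.11, -0.21], and the ornithine carrier Slc25a15 at -1.19 [-1.91, -0.56] and -0.97 [-1.78, -0.27]. Slc25a33 followed at -0.79 and -0.73, Slc25a13 at -0.55 and -0.61, and Slc25a1 at -0.88 and -0.55, in tdTom+ and tdTom-. Slc25a37 was at -0.60 [-1.13, -0.12] in tdTom+ and at 0.16 [-0.24, 0.53] in tdTom-. The other members past 2-fold in tdTom+ were Slc25a27 and Slc25a53, with 3 and 1 cardiac-like UMIs and intervals that held 0. Slc25a48 had 0 UMIs in cardiac-like cells of either fraction, at a depth where the bound did not reach 2-fold. In the unspliced layer 2 of 31 members were higher and 7 lower in tdTom+, beside 6.99% and 20.4%. Of the lower ones Slc25a15, Slc25a16, Slc25a43 and Slc25a51 rested on 1, 2, 1 and 4 cardiac-like UMIs, with intervals that held 0. In tdTom- 6 of 30 were higher and 4 lower, beside 8.79% and 19.5%, and Slc25a4 and Slc25a12 were higher in both fractions. Of the higher ones in tdTom-, Slc25a20, Slc25a23 and Slc25a44 rested on 9, 10 and 4 cardiac-like UMIs, and the interval of Slc25a44 held 0. Of the lower ones there, Slc25a22 and Slc25a47 rested on 4 and 2, and the interval of Slc25a22 held 0.

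**Figure D5:**
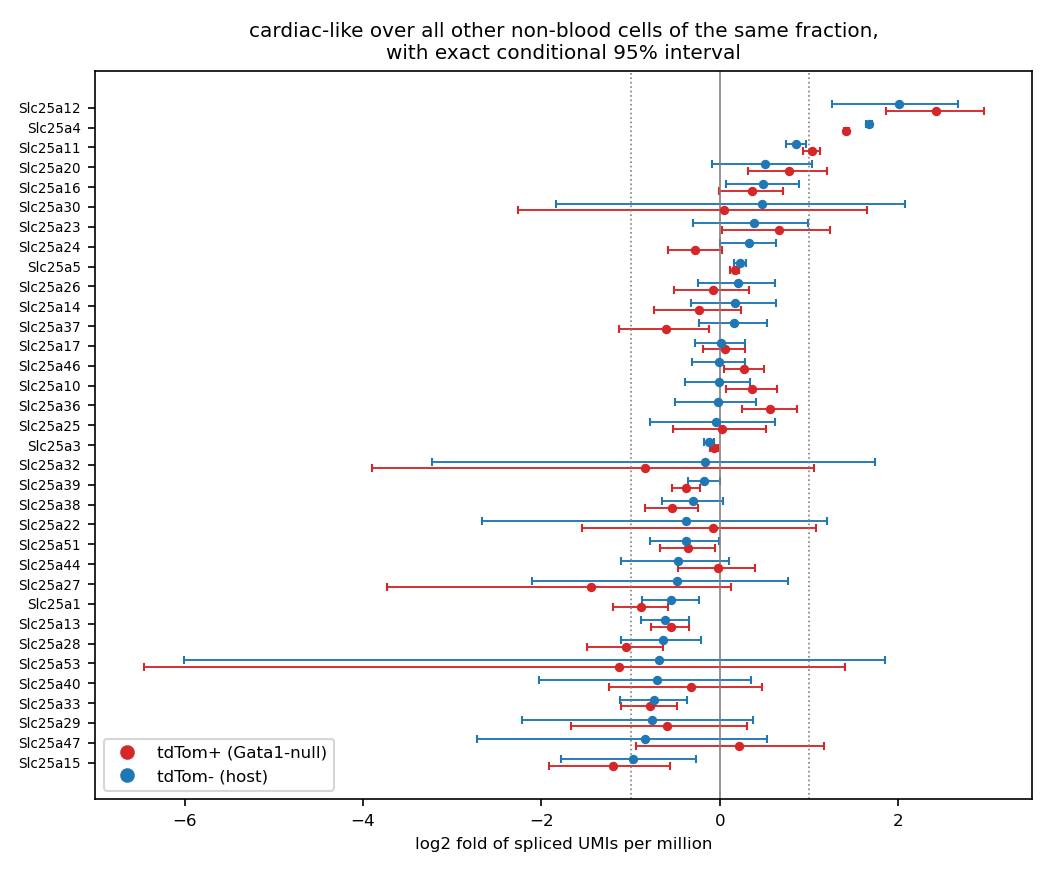
Log2 fold of the spliced CPM in cardiac-like over all other non-blood cells, for tdTom+ (red) and tdTom- (blue), with exact conditional 95% intervals, for members with at least 50 UMIs in both fractions' comparisons and no group at 0. Slc25a12, Slc25a4 and Slc25a11 are at the top, and dotted lines mark 2-fold.

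Between the fractions, tdTom+ over tdTom- cardiac-like cells, no member of 25 was higher and 1 was lower, beside 0.317% and 1.03% of 7877 genes. The lower one was Slc25a37, with 35 UMIs or 8.17 CPM against 60 UMIs or 20.3 CPM, a log2 fold of -1.32 [-1.96, -0.69]. With doublet calls kept it was -2.16. The 3 tdTom- cells of over 1% globin held 21 of the 60 UMIs, and without such cells (1 in tdTom+) the log2 fold was -0.73 [-1.44, -0.04], so that no member was past 2-fold. Neural-like cells held 14.1 CPM [12.3, 16.1] in tdTom+, above the cardiac-like level of [5.69, 11.4], and 18.2 CPM in tdTom-. Slc25a4 was at -0.20 [-0.24, -0.16], Slc25a3 at 0.10 [0.03, 0.17] and Slc25a36 at 0.56 [0.02, 1.12]. In the unspliced layer none of 9 members was higher and 1 was lower, beside 0.763% and 0.977% of genes, namely Slc25a21 with 17 against 86 unspliced UMIs and a log2 fold of -2.79 [-3.63, -2.03]. Without the cells of over 1% globin it had 15 against 62 unspliced UMIs and a log2 fold of -2.53 [-3.45, -1.70]. Globin was then 0.0164% of the spliced UMIs in tdTom+ and 0.0696% in tdTom-, and the part of this difference in the fold was not tested.

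Slc25a37 was lower in tdTom+ in each of the 11 non-blood classes with at least 100 cells per fraction, with log2 folds from -1.32 to -0.22, a median of -0.62 and an interval below 0 in 10 of them. Globin, too, was lower there: the median share per cell was 0.0154% in tdTom+ and 0.0855% in tdTom- neural-like cells, and its part in the difference of Slc25a37 was not tested. Slc25a28 had a median log2 fold of 0.06 over the same classes. Finer clustering split allantois and extraembryonic mesenchyme-like cells partly by fraction, with 1 cluster of 0 tdTom+ and 279 tdTom- cells and 1 of 400 and 1. All 11 classes come from the same 2 libraries and are not repeats of each other. In cardiac-like cells, 749 of 7877 genes had an interval above 0 and 838 had one below 0. Such shares over all genes are not given here for the other classes. Slc25a4 and Slc25a11 had an interval below 0 in 6 of the 11 classes each, with median log2 folds of -0.05 and -0.14. Slc25a3 and Slc25a5 had one above 0 in 7 and 6 classes, with medians of 0.06 and 0.05. Both, and Slc25a4, were lower in tdTom+ visceral endoderm-like cells, at -0.13 [-0.19, -0.07], -0.36 [-0.45, -0.27] and -0.34 [-0.39, -0.28], but without the finer cluster of 6 tdTom+ and 61 tdTom- cells they were at 0.00 [-0.06, 0.07], -0.06 [-0.17, 0.04] and -0.04 [-0.11, 0.03].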

How the data were processed

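Single-cell suspensions of 6 pooled chimaeras were sorted into tdTom+ (1 library) and tdTom- (1 library). The authors mapped 3′ end droplet reads to mm10 with Cell Ranger 3.0.2, called cells with emptyDrops and split molecules into layers with velocyto. The deposited values are whole UMI counts per cell and gene, spliced and unspliced, without normalization. Their per-cell quality metrics were not used.

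Doublets called with Scrublet were left out (377 tdTom+, 4.20%; 518 tdTom-, 5.60%), as were all other cells of any cluster with over 50% of such calls. Leiden clustering used the 2500 most variable genes (50 components, 20 neighbours, resolution 1.5), and blood cells were clustered again (2000 genes, 30 components, 15 neighbours, resolution 1). In both steps 78 genes, all members included, were left out. UMIs were summed per fraction and class and scaled to CPM of the layer. Folds have exact conditional intervals, levels Poisson and shares Clopper-Pearson intervals, all for counting error only. Fold intervals were checked on simulated Poisson counts, which hold counting error only and leave out the spread between cells. Python 3.11.15, scanpy 1.11.5, leidenalg 0.10.2 and scipy 1.17.1 were used.

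Members and lists were chosen with earlier results of these data known. Named are the iron, haem, glutathione, ADP/ATP and phosphate carriers, the multiple rate kinetics genes, the 5 members per direction and comparison with the largest fold and an interval without 0, and the leading members of each class. Other carriers were named so that counts are accounted for. The values of 1 member are not reported here and it is not drawn, but it remains in the counts, sums and medians. Folds of the unspliced layer, carrier pairs and leaving out the Spi1-led and Cdkn1a-led sub-clusters were added after the data had been seen.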

Additional observations from a re-analysis of the deposited data

How the results depend on the processing

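No paired analysis was possible because there was 1 library per fraction, and for the same reason no library could be left out. Of the values recomputed under each setting, those that moved beyond their counting interval numbered 58, against 27 that did not, with the neural-like level subtracted. They numbered 29 against 145 with both layers summed, 25 and 2 reversed against 163 with finer clustering, 23 against 151 with globin left out, 11 against 189 with doublet calls kept and 8 against 166 with the mean of the CPM of single cells. Reversed in sign were Slc25a23 in tdTom+ (-0.10) and Slc25a39 in tdTom- (0.051) cardiac-like over other non-blood cells, both with finer clustering. Without the Cdkn1a-led sub-cluster no value of the 30 in the host erythroid comparison moved beyond its interval, without the Spi1-led one 1 of 26 did (Slc25a37), and with only matched cells of at least 5000 spliced UMIs 0 of 26 did. Counts of members past 2-fold rested on few members. Shares over all genes are not set beside the counts below, so these describe how calls moved and not a trait of the family. With both layers summed, later over early gave 1 higher, matched cells gave 2 higher, cardiac-like cells between fractions gave 2 lower and tdTom- cardiac-like over non-blood cells 3 lower. Matched cells gave 0 higher with globin UMIs left out, with finer clustering and with all blood progenitor-like tdTom+ cells in place of matched ones. Finer clustering gave 1 lower in tdTom+ and 2 lower in tdTom- cardiac-like over non-blood cells. Subtracting the neural-like level, which takes away free RNA and any true neural-like expression, gave 8 higher and 2 lower in host erythroid-like cells, 2 lower for later over early, 3 higher for matched cells, 3 higher and 0 lower between cardiac-like fractions (where the subtraction left no Slc25a37 in tdTom+, so that it could not be called), and 7 higher with 2 lower in tdTom+ and 7 higher with 3 lower in tdTom- cardiac-like over non-blood cells. The log2 fold of Slc25a37 in host erythroid-like cells was then 10.69, since little of the other cells' level was left. A minimum of 10 UMIs gave 5 higher for later over early, 4 for matched cells and 7 and 6 for tdTom+ and tdTom- cardiac-like over non-blood cells.

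The summed family level moved with the denominator. With both layers summed it was 3465 CPM in tdTom+ and 4326 CPM in tdTom- erythroid-like cells, 4332 in blood progenitor-like cells, 4377 (tdTom+) and 4665 (tdTom-) in cardiac-like, 2449 and 2454 in neural-like, 2968 and 3519 in visceral endoderm-like, 3332 and 3354 in endothelial-like and 3279 and 3194 in all kept cells. With globin left out it was 4572 CPM in tdTom- erythroid-like, 4809 in progenitor-like and 3632 (tdTom+) and 3484 (tdTom-) in all kept cells. Finer clustering gave 4224 CPM (tdTom+) and 4389 CPM (tdTom-) in cardiac-like, 5843 in tdTom- visceral endoderm-like and 3793 in tdTom+ endothelial-like cells. With doublet calls kept it was 5161 CPM in tdTom- cardiac-like and 3627 CPM in all kept tdTom+ cells. The mean over single cells was 4674 CPM in progenitor-like, 4818 in tdTom+ cardiac-like, 3065 (tdTom+) and 3582 (tdTom-) in visceral endoderm-like and 3538 and 3348 in all kept cells. Without the finer visceral endoderm-like cluster, a setting chosen after seeing the data, the rest of that class was at 3042 (tdTom+) and 3115 CPM (tdTom-). Without cells of over 1% globin, chosen likewise, 0 members were lower between cardiac-like fractions. The cause of these moves was not tested where the denominator itself does not change.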

Other observations

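Some members marked classes that no comparison was built on. Slc25a45 stood at 17.4 CPM (66 UMIs) in tdTom+ myeloid-like cells and 0.36 CPM in all other tdTom+ cells, a log2 fold of 5.60 [5.06, 6.15]. In the 28 tdTom- myeloid-like cells it stood at 18.9 CPM [8.15, 37.2] on 8 UMIs, and in the Spi1-led tdTom+ sub-cluster at 2.84 CPM [1.71, 4.44]. Slc25a12 was the next member of tdTom+ myeloid-like cells, at 16.6 CPM [12.8, 21.2], but had 0 UMIs in the tdTom- ones, where the upper limit was 8.70 CPM. It led tdTom- extraembryonic ectoderm-like cells at 20.7 CPM [14.8, 28.2]. Each of these is a description, since the classes were drawn from the same cells.

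In mesoderm and ectoderm, Slc25a24 led allantois and extraembryonic mesenchyme-like cells in both fractions, at 57.1 (tdTom+) and 62.6 CPM (tdTom-), with log2 folds over all other cells of 1.67 [1.57, 1.77] and 1.93 [1.82, 2.05]. The choline carrier Slc25a48 led somitic mesoderm-like and neural-like cells in both fractions. Its log2 folds were 3.47 and 2.43 in somitic mesoderm-like cells, on 15 and 21 UMIs, and 2.91 and 3.06 in neural-like cells, on 25 and 73 UMIs. Slc25a43 led tdTom- surface ectoderm-like cells at 2.88 [1.99, 3.72] on 19 UMIs. In visceral endoderm-like cells Slc25a21 stood at 4.22 (tdTom+) and 6.78 CPM (tdTom-), and the dicarboxylate carrier Slc25a10 at 38.8 and 53.3 CPM. Without the finer visceral endoderm-like cluster, of 6 tdTom+ and 61 tdTom- cells, Slc25a10 was at 29.4 and 26.8 CPM. The level of Slc25a21 without that cluster is not given here.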
